A study of Homo sapiens with 6 samples.

Results

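The 42 genes described here belong to the machinery that copies DNA. They cover the loading (licensing) factors of replication origins, the subunits that activate the helicase, and the polymerases and primase. The clamp and lagging-strand proteins, the enzymes that supply nucleotides, and 3 genes grouped as regulators (E2F1, E2F8 and UHRF1) make up the rest. The genes were chosen by name, as all probes whose gene name on the array equals one of the 42 symbols. The symbols themselves were picked with earlier results of these data known. All 42 were found among 43317 gene names, on 54 of 58201 non-control probes, and all 54 probes were well above background on all 6 arrays. The RNA came from BT474, a luminal breast cancer cell line with estrogen receptor and amplified HER2, grown in RPMI-1640 with 10% FBS. Control cells (named MOCK in the labels) carried empty pcDNA3.1. BT474-Var1 cells carried pcDNA3.1-NR2F1-AS1variant1, the long form of the long non-coding RNA NR2F1-AS1, and BT474-Var4 cells carried pcDNA3.1-NR2F1-AS1variant4, a short form. Each group had 2 arrays, called A and B, of 100 ng RNA each. The study describes the populations with a variant as colonies regrown from the few cells that survived antibiotic selection. Its methods describe the plasmid of variant 4 as one that also encodes eGFP. Which empty plasmid the Control cells of these arrays carried is not stated in the sources used here. Nothing says that the 2 arrays of a group came from separate cultures, so the p-values measure only the spread between these arrays, which may be technical.

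In the cycle of a dividing cell, the origin recognition complex (ORC), CDC6 and CDT1 load the ring of MCM2, MCM3, MCM4, MCM5, MCM6 and MCM7 onto origins before S phase, and geminin (GMNN) blocks CDT1 afterwards so that no origin fires again. CDC45, the GINS complex and MCM10 then turn the loaded ring into a moving helicase, polymerase alpha with primase starts each strand, polymerases epsilon and delta extend it on the PCNA clamp, and FEN1 and LIG1 trim and join the lagging-strand fragments. Transcription of many of these genes is controlled by E2F factors and rises as cells enter S phase, and it falls when cells leave the cycle. The comparison asked how these genes differ in a population that carries a NR2F1-AS1 variant. In RNA from a whole population, fewer cells in S phase and less RNA per cell cannot be told apart.

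The letters read by the motif search are shown for promoters from RefSeq (GRCh38.p14), since E2F sites are the best known element that these genes share. A promoter of 300 bases, 250 before and 50 from the transcription start, was found for 36 of the 42 genes, and the first start listed for a gene was used. Both strands were searched for TTTCGCGC or TTTGGCGC (an E2F site of 8 bases), for TTCGCGC or TTGGCGC (the same site without its first T, so that each longer match holds a shorter one), for CCAAT, for TTTGAA or TTCGAA (the cell cycle homology region of mitotic genes) and for GGGCGG (SP1). The 6 promoters below hold the E2F site of 8 bases and belong to genes of the licensing ring, the polymerases and the E2F family itself. They are given from 170 bases before to 30 bases after the start, and capitals mark the E2F site and the CCAAT box, read on either strand.
MCM2 (chr3:127598241-127598440, plus strand): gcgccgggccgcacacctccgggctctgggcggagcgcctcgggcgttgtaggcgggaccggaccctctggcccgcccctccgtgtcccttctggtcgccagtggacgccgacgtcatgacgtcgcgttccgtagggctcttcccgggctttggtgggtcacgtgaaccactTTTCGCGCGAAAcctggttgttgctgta
MCM6 (chr2:135876414-135876613, minus strand): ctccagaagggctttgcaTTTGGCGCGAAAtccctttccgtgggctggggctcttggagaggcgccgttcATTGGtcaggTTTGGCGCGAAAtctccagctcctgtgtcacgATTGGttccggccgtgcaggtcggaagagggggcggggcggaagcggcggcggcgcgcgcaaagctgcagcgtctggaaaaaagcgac
MCM7 (chr7:100101368-100101567, minus strand): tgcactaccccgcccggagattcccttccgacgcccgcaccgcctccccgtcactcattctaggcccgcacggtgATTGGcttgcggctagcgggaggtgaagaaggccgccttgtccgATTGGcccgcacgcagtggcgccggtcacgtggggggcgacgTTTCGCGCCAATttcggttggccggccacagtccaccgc
POLA2 (chr11:65261792-65261991, plus strand): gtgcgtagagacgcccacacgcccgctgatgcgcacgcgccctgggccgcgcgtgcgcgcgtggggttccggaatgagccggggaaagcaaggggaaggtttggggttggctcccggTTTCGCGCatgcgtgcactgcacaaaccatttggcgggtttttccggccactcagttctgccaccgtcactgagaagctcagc
POLE2 (chr14:49688185-49688384, minus strand): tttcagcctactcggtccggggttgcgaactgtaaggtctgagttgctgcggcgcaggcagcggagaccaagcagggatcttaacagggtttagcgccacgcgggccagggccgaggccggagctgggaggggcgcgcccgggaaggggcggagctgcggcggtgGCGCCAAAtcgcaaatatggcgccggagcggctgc
E2F1 (chr20:33686356-33686555, minus strand): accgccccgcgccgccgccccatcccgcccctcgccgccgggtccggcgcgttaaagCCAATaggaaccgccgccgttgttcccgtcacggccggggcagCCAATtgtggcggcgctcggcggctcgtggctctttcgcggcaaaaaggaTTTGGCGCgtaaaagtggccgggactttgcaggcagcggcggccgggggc

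The promoter of MCM6 held the E2F letters at 2 places, at each of which both forms overlapped on opposite strands, so that 4 matches were counted. The promoter of MCM2 held 2 overlapping matches within the first bases of the transcript. In MCM7 the E2F site and a CCAAT box shared letters. The next 4 promoters belong to 4 of the genes with the largest changes against Control or between the variants. None of them held the E2F site of 8 bases in the forms searched. POLA1, which is also among the genes with the largest differences between the variants, did hold it, as did POLE2. LIG1 held the shorter E2F site, with matches at bases 11 and 25 from the start. Other forms of the E2F site were not searched, so a promoter without a match may hold one of them. CCAAT boxes are in capitals here too, 3 of them in the printed stretch of RRM2 and 1 in that of GINS2.
GINS2 (chr16:85688925-85689124, minus strand): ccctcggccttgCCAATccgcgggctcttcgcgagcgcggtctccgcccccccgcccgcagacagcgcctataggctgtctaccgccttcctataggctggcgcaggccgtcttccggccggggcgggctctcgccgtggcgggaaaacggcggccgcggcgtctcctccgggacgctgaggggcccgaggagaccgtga
POLD1 (chr19:50384153-50384352, plus strand): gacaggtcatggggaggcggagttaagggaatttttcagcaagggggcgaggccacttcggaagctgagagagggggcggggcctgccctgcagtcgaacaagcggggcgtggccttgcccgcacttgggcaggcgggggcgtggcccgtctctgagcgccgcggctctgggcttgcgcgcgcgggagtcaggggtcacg
LIG1 (chr19:48170315-48170514, minus strand): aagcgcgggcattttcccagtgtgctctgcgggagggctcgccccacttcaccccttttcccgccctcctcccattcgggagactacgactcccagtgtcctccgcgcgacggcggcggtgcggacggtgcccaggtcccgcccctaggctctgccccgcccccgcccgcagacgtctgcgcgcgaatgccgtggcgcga
RRM2 (chr2:10122569-10122768, plus strand): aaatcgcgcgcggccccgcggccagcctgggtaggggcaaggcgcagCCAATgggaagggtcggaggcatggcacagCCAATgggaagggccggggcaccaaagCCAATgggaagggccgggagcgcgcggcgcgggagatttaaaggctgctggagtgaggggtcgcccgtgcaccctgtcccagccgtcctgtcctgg

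The E2F site of 8 bases was present in 11 of the 36 promoters (30.6%), those of CDC6, E2F1, GINS1, MCM2, MCM3, MCM6, MCM7, POLA1, POLA2, POLE and POLE2, and in 1.18% of the promoters of all 27305 genes. The shorter E2F site was present in 41.7% against 5.18%, the CCAAT box in 58.3% against 35.7%, the SP1 site in 72.2% against 44.6% and the cell cycle homology region in 5.56% against 16.6%. The 27305 genes include genes that do not code for protein. Among 15843 protein-coding promoters, 58.5% held the SP1 site, so the share in the 36 promoters lay nearer to that background. The E2F site of 8 bases was in 1.67% of them, the CCAAT box in 36.4% and the cell cycle homology region in 13.5%. Differences between these shares were not tested. By role, the E2F site of 8 bases was in 5 of 10 licensing promoters, 4 of 7 polymerase and primase promoters, 1 of 5 helicase activation promoters, 0 of 8 clamp and lagging-strand promoters and 0 of 4 nucleotide supply promoters. It was present in 5 of 16 promoters of genes that fell in both variants, 4 of 12 with a call for BT474-Var4 alone, 1 of 4 with a call for BT474-Var1 alone and 1 of 4 with no call. When every listed start of a gene was searched, 13 of the 36 genes and 1.40% of all genes held it.

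Levels are log2 intensities minus the 75th percentile of the array's probes, so that 0 is the 75th percentile and a difference of 1 is 2-fold. For each gene the brightest tested probe was used, and a gene was called at a Benjamini-Hochberg adjusted p under 0.05 in limma, which fitted all 6 arrays together. The share of probes well above background was 47.6% to 57.5% per array, and the replicate arrays of each group correlated across tested probes at 0.980 to 0.987. NR2F1-AS1 itself, on the probe nearest its 5′ end, had levels of -5.76 and -4.16 in Control, -1.69 and -1.52 in BT474-Var1 and 3.01 and 3.02 in BT474-Var4 cells, and 1 of the 2 Control arrays was not above background there. A probe near the 3′ end of the long form went the other way between the variants, with levels of -0.42 and -0.51 in BT474-Var1 cells, while it was not above background on any Control (-6.37 and -6.62) or BT474-Var4 array (-6.33 and -5.73). All 8 luminal markers (ESR1, GATA3, FOXA1, KRT8, KRT18, KRT19, EPCAM and ERBB2) were tested, with summed linear levels of 2057 to 2094 times the 75th percentile in Control, 2624 to 2663 in BT474-Var1 and 2012 to 2031 in BT474-Var4 cells. The single markers moved both ways: KRT19 (0.62), KRT8 (0.32) and ERBB2 (0.22) were called higher and EPCAM (-0.66) and FOXA1 (-0.50) lower in BT474-Var1 cells, and ESR1 (-0.47) and FOXA1 (-0.40) were called lower in BT474-Var4 cells. Of 8 markers of blood, stromal and endothelial cells, 5 were tested, with summed levels of 5.95 to 6.14, 5.63 to 5.86 and 7.92 to 8.02. COL1A1 was called higher in both populations (0.34 and 1.03) and VWF lower in BT474-Var1 cells (-0.87). COL1A2 was not above background on any array, and the part of these markers in the results was not tested. The 6 arrays shared 1 slide and 1 scan, and the BT474-Var1 arrays stood in another column of the slide than the other 4, so that column and variant cannot be told apart for BT474-Var1. Control stood in rows 1 and 2 and the 4 arrays of cells with a variant in rows 3 and 4. Slide row and the presence of a variant therefore cannot be told apart either.

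Replication genes were lower in both populations. In BT474-Var1 cells 25 of the 42 fell and 0 rose, where 20.7% of all 24619 gene names tested fell and 14.2% rose. In BT474-Var4 cells 32 fell and 0 rose, against 14.6% and 10.2% of all gene names. The median change was -0.24 for BT474-Var1 and -0.40 for BT474-Var4, beside medians of -0.05 and -0.08 over all gene names. At an unadjusted p under 0.05 in limma, 1 member was higher in BT474-Var1 cells and 0 in BT474-Var4 cells. The methods' one-way analysis of variance called 0 members higher in both. Quantile normalization called LIG1 (0.35) and POLA1 (0.23) higher in BT474-Var1 cells, limma with a variance trend called LIG1 alone (0.22), and the median for BT474-Var1 under quantile normalization was -0.12. The changes were small: 0 members passed 2-fold against Control, where 4.00% of all gene names did in BT474-Var1 cells and 3.23% in BT474-Var4 cells. The 2 comparisons share the Control arrays. Leaving out Control A or B gave medians of -0.24 and -0.27 in BT474-Var1 cells, and of -0.38 and -0.41 in BT474-Var4 cells. Leaving out array A or B of the population itself gave -0.25 and -0.26 in BT474-Var1 and -0.40 and -0.38 in BT474-Var4 cells. Each time fewer members, and a smaller share of all gene names, were called lower. With no filter on dim probes 5 and 2 members were called lower, where 2.33% and 0.52% of all gene names were. The medians of the members were unchanged there.

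**Figure D1:**
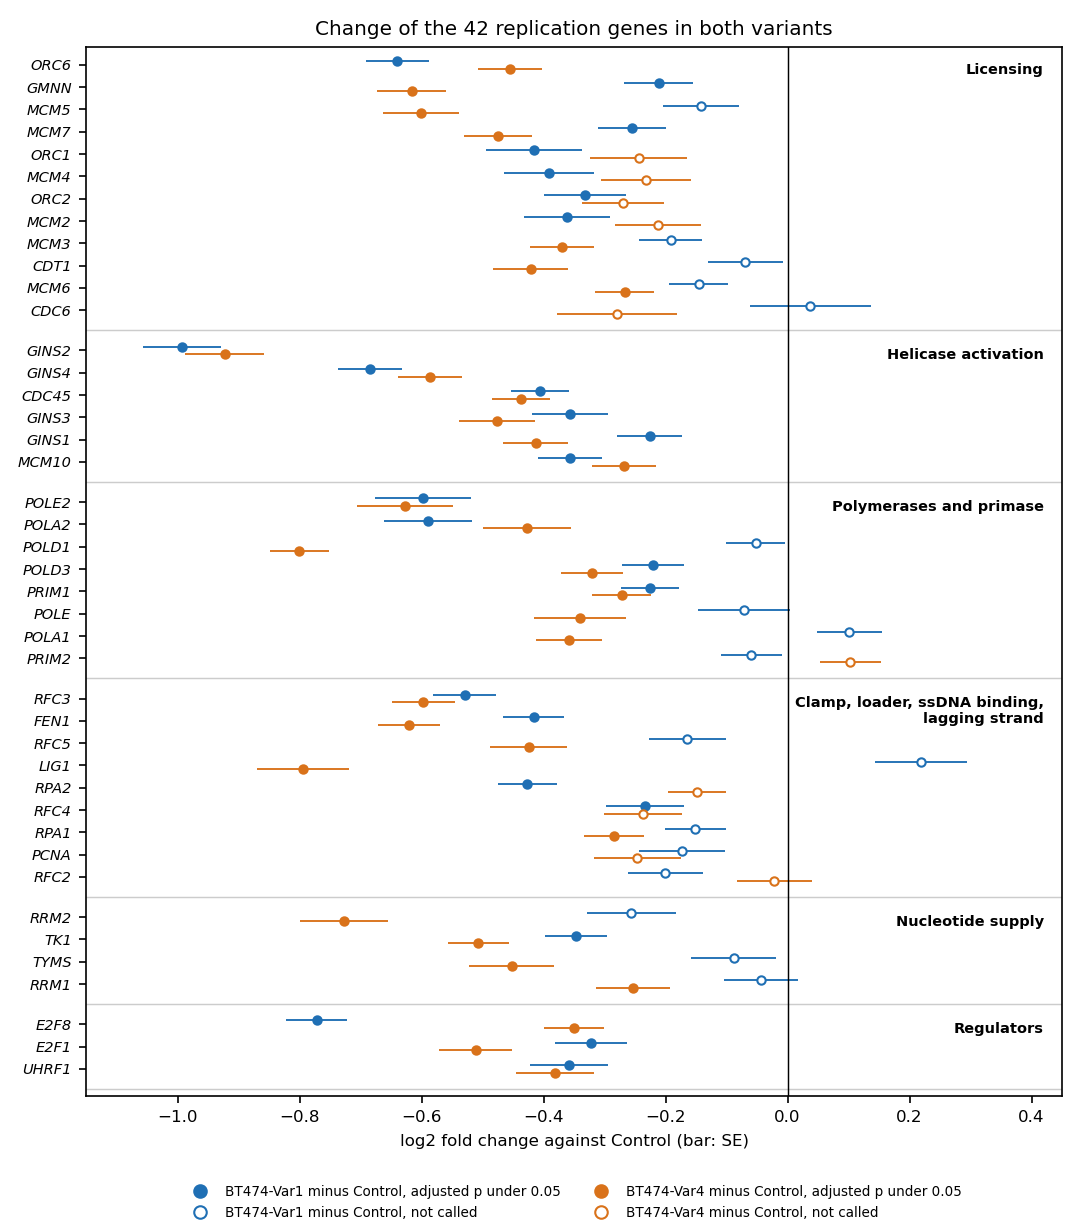
Log2 fold change against Control (x axis, bars are the SE, 2 arrays a group) of each of the 42 genes, grouped by role, in BT474-Var1 (blue) and BT474-Var4 cells (orange); filled points have an adjusted p under 0.05. All 25 and 32 called genes lie left of 0, GINS2 lies furthest left in both populations, and LIG1, POLD1 and POLA1 are far apart between the 2 colors.

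Across both comparisons the members fell into 4 sets. The shares of all gene names in such sets are not given here, and both comparisons use the same Control arrays. In both populations 19 genes were lower: CDC45, E2F1, E2F8, FEN1, GINS1, GINS2, GINS3, GINS4, GMNN, MCM10, MCM7, ORC6, POLA2, POLD3, POLE2, PRIM1, RFC3, TK1 and UHRF1. In BT474-Var4 cells alone 13 were called: CDT1, LIG1, MCM3, MCM5, MCM6, POLA1, POLD1, POLE, RFC5, RPA1, RRM1, RRM2 and TYMS. In BT474-Var1 cells alone 6 were called: MCM2, MCM4, ORC1, ORC2, RFC4 and RPA2. CDC6, PCNA, PRIM2 and RFC2 were called in neither. A call in one population and not in the other is not a difference between them, and the direct test is given further on.

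The origin loading genes fell in part. Of 12, 7 were called lower in each population, where 20.7% and 14.6% of all gene names were. The medians were -0.23 in BT474-Var1 cells and -0.33 in BT474-Var4 cells. ORC6, a subunit of the origin recognition complex, had levels of 2.57 and 2.59 in Control, 1.92 and 1.96 in BT474-Var1 and 2.10 and 2.15 in BT474-Var4 cells (hg19 chromosome 16, 46731519 to 46731578, plus strand). The groups did not overlap, and both variants lay below Control. ORC6 fell by 0.64 on the log2 scale in BT474-Var1 (SE 0.05, adjusted p = 0.00437) and, in BT474-Var4 cells, fell by 0.46 (SE 0.05, adjusted p = 0.00993); leaving out either Control array ended the latter call (adjusted p at most 0.0655). ORC1 and ORC2 changed by -0.42 and -0.33 in BT474-Var1 cells (both called), and their changes of -0.24 and -0.27 in BT474-Var4 cells missed the threshold (adjusted p = 0.0903 and 0.0513).

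All 6 subunits of the MCM ring had negative changes in both populations. MCM7 fell in both populations, by 0.26 in BT474-Var1 cells and 0.47 in BT474-Var4 cells. MCM2 and MCM4 were called in BT474-Var1 cells (-0.36 and -0.39; -0.21 and -0.23 in BT474-Var4 cells), and MCM3, MCM5 and MCM6 in BT474-Var4 cells (-0.37, -0.60 and -0.27; -0.19, -0.14 and -0.15 in BT474-Var1 cells). In the direct comparison of the populations MCM5 and MCM7 passed the test and the other 4 did not (adjusted p = 0.0532 to 0.155). The calls of MCM7 in BT474-Var1 cells and of MCM6 in BT474-Var4 cells were lost whichever array was left out, that of MCM5 without Control B only, and the others without 3 or 4 of the 6 arrays in turn. MCM5 had a second probe, on which it was called in both (-0.39 in BT474-Var1, adjusted p = 0.0201; -0.74 in BT474-Var4 cells, adjusted p = 0.00742). Geminin, the inhibitor of CDT1, fell by 0.62 in BT474-Var4 (adjusted p = 0.00653; 0.0504 without Control A) and by 0.21 in BT474-Var1 cells, a call that was lost whichever array was left out. CDT1, its target, fell by 0.42 in BT474-Var4 cells (adjusted p = 0.0159) and changed by -0.07 in BT474-Var1 cells. CDC6, which brings CDT1 and the ring to ORC, changed by 0.04 in BT474-Var1 cells and -0.28 in BT474-Var4 cells and was called in neither.

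All 6 helicase activation genes fell in both populations, where 20.7% and 14.6% of all gene names did. The medians were -0.38 in BT474-Var1 cells and -0.46 in BT474-Var4 cells. GINS2, a subunit of the 4-protein GINS complex, had levels of 3.73 and 3.72 in Control, 2.68 and 2.78 in BT474-Var1 and 2.84 and 2.76 in BT474-Var4 cells (hg19 chromosome 16, 85711654 to 85711713, minus strand). Its Control arrays stood far above the other 4, while BT474-Var1 and BT474-Var4 overlapped. GINS2 was 1.99-fold lower in BT474-Var1 (log2 -0.99, SE 0.06, adjusted p = 0.00345) and 1.90-fold lower in the BT474-Var4 population (log2 -0.92, SE 0.06, adjusted p = 0.00429), and both calls held in all alternatives tried. It had the largest change of the members in each population.

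GINS4 had levels of 3.15 and 3.15 in Control, 2.47 and 2.47 in BT474-Var1 and 2.60 and 2.53 in BT474-Var4 cells. Both variants were below Control on every array. The change was -0.68 (SE 0.05, adjusted p = 0.00409) and -0.59 (SE 0.05, adjusted p = 0.0063). The other subunits, GINS1 and GINS3, fell by 0.23 and 0.36 in BT474-Var1 and by 0.41 and 0.48 in BT474-Var4 cells. CDC45, the partner of the complex on the ring, fell by 0.41 and 0.44, and MCM10, which the activated helicase needs to start moving, fell by 0.36 and 0.27. Leaving out 1 array at a time, GINS2 and GINS4 kept both calls and CDC45 that of BT474-Var1 cells. The calls of GINS1 in BT474-Var1 and of MCM10 in BT474-Var4 cells were lost whichever array was left out (adjusted p at most 0.146 and 0.130), and the other calls of GINS1, GINS3, MCM10 and CDC45 were lost without 2 to 4 of the 6 arrays in turn, both Control arrays among them.

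**Figure D2:**
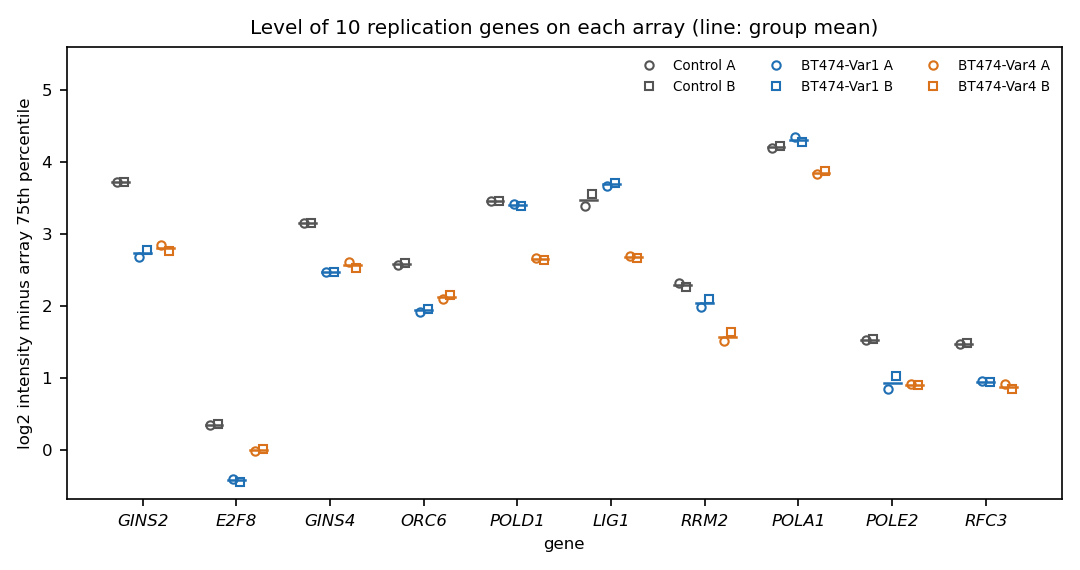
Level of 10 genes (y axis, log2 intensity minus the array's 75th percentile) on each of the 6 arrays, with circles for array A, squares for array B and a line at the group mean. GINS2, GINS4, POLE2 and RFC3 are lower in both variants than in Control, whereas POLD1, LIG1 and POLA1 are lower in BT474-Var4 cells and close to or above Control in BT474-Var1 cells; levels of different genes are not comparable.

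Of the 8 polymerase and primase genes, 4 fell in BT474-Var1 cells and 7 in BT474-Var4 cells (medians -0.15 and -0.35). The shares of all gene names that fell were 20.7% and 14.6%. POLE2, the second subunit of the leading-strand polymerase epsilon, had levels of 1.53 and 1.53 in Control, 0.84 and 1.03 in BT474-Var1 and 0.91 and 0.90 in BT474-Var4 cells (hg19 chromosome 14, 50122411 to 50122470, minus strand). Control stood above the other 4 arrays, which overlapped. POLE2 fell by 0.60 (SE 0.08, adjusted p = 0.00872) and by 0.63 (SE 0.08, adjusted p = 0.0117). Both calls ended when Control A or B was left out, and that of BT474-Var4 cells also when one of its own arrays was (adjusted p at most 0.053 and 0.0702).

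POLD1, the catalytic subunit of polymerase delta, had levels of 3.46 and 3.45 in Control, 3.42 and 3.38 in BT474-Var1 and 2.67 and 2.64 in BT474-Var4 cells (hg19 chromosome 19, 50921206 to 50921265, plus strand). The BT474-Var4 arrays alone stood apart. POLD1 was 1.74-fold lower in BT474-Var4 cells (log2 -0.80, SE 0.05, adjusted p = 0.00368), held in all alternatives, and changed by -0.05 in BT474-Var1 cells (95% interval -0.18 to 0.08). POLA1, the catalytic subunit of polymerase alpha, had levels of 4.20 and 4.23 in Control, 4.35 and 4.28 in BT474-Var1 and 3.84 and 3.87 in BT474-Var4 cells (hg19 chromosome X, 25014903 to 25014962, plus strand). It was below Control in BT474-Var4 and above it in BT474-Var1 cells on every array. The change was -0.36 in BT474-Var4 cells (adjusted p = 0.0165; at most 0.0903 and not called when any Control or BT474-Var4 array was left out), and 0.10 in BT474-Var1 cells (adjusted p = 0.211).

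POLA2, the second subunit of polymerase alpha, fell in both populations, by 0.59 and 0.43. POLE, the catalytic subunit of polymerase epsilon, changed on its brightest probe by -0.07 in BT474-Var1 and fell by 0.34 in BT474-Var4 cells, and its other probe was called in both (-0.66 and -0.50). PRIM1, the catalytic primase subunit, fell by 0.23 and 0.27. Both calls of PRIM1, that of POLE in BT474-Var4 and that of POLD3 in BT474-Var1 cells were lost whichever array was left out. POLA2 kept its call in BT474-Var1 cells without any 1 array. In BT474-Var4 cells POLA2 lost the call when any Control or BT474-Var4 array was left out. PRIM2, the large primase subunit, was the only member with a probe called in the opposite direction to its brightest. On the brightest PRIM2 changed by -0.06 in BT474-Var1 cells and 0.10 in BT474-Var4 cells. A dimmer probe, annotated to another transcript, was called higher in BT474-Var1 (0.50, adjusted p = 0.0155) and lower in BT474-Var4 cells (-0.39, adjusted p = 0.0365). The remaining probes of PRIM2 were not called.

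Among the clamp, clamp loader, single-strand binding and lagging-strand genes, 4 of 9 fell in BT474-Var1 cells and 5 in BT474-Var4 cells (medians -0.20 and -0.28). The shares of all gene names that fell were 20.7% and 14.6%. RFC3, a subunit of the clamp loader, had levels of 1.47 and 1.48 in Control, 0.95 and 0.94 in BT474-Var1 and 0.91 and 0.85 in BT474-Var4 cells (hg19 chromosome 13, 34410688 to 34410747, plus strand). All 4 arrays of cells with a variant lay below both Control arrays. RFC3 fell by 0.53 (SE 0.05, adjusted p = 0.00533) and by 0.60 (SE 0.05, adjusted p = 0.00585), and its second probe, of another transcript, changed by -0.23 and -0.20 and was not called.

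LIG1, the ligase that seals the lagging strand, had levels of 3.38 and 3.56 in Control, 3.67 and 3.71 in BT474-Var1 and 2.69 and 2.66 in BT474-Var4 cells (hg19 chromosome 19, 48618822 to 48618881, minus strand). BT474-Var4 lay below and BT474-Var1 above both Control arrays. LIG1 was 1.73-fold lower in BT474-Var4 cells (log2 -0.79, SE 0.08, adjusted p = 0.00688) and changed by 0.22 in BT474-Var1 cells (adjusted p = 0.0876). FEN1, the flap nuclease that acts before the ligase, fell in both, by 0.42 and 0.62. PCNA, the clamp, changed by -0.17 and -0.25 and was called in neither on its brightest probe (adjusted p = 0.129 and 0.0702), whereas its other probe was called in BT474-Var1 cells (-0.30, adjusted p = 0.0208). The single-strand binding subunit RPA2 fell by 0.43 in BT474-Var1 and changed by -0.15 in BT474-Var4 cells, and RPA1 changed by -0.15 in BT474-Var1 and fell by 0.28 in BT474-Var4 cells.

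Of the 4 nucleotide supply genes, 1 was called lower in BT474-Var1 cells and 4 in BT474-Var4 cells (medians -0.17 and -0.48). Among all gene names 20.7% and 14.6% were, so the count in BT474-Var1 cells is near that share. In the direct comparison RRM2 and TYMS passed the test, where 21.0% of all gene names were lower in BT474-Var4 cells. RRM2, the subunit of ribonucleotide reductase made in S phase, had levels of 2.33 and 2.27 in Control, 1.99 and 2.09 in BT474-Var1 and 1.51 and 1.63 in BT474-Var4 cells (hg19 chromosome 2, 10270487 to 10270546, plus strand). Its 3 groups did not overlap, with BT474-Var4 lowest. RRM2 was 1.66-fold lower in BT474-Var4 cells (log2 -0.73, SE 0.07, adjusted p = 0.0075; at most 0.0543 and not called without Control A or B) and changed by -0.26 in BT474-Var1 cells (adjusted p = 0.0548). RRM1, the large subunit, changed by -0.04 in BT474-Var1 cells and -0.25 in BT474-Var4 cells, and its call in the latter was lost whichever array was left out. Thymidine kinase (TK1), of the salvage route, fell by 0.35 and 0.51. Thymidylate synthase (TYMS), of the synthesis route, changed by -0.09 in BT474-Var1 and fell by 0.45 in BT474-Var4 cells. Leaving out either Control array ended the calls of TK1 and TYMS.

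All 3 regulators fell in both populations. E2F8, a repressor of the E2F family that is itself made in S phase, had levels of 0.34 and 0.35 in Control, -0.40 and -0.45 in BT474-Var1 and -0.02 and 0.01 in BT474-Var4 cells (hg19 chromosome 11, 19245675 to 19245734, minus strand). The 3 groups did not overlap, with BT474-Var1 lowest. E2F8 was 1.71-fold lower in BT474-Var1 (log2 -0.77, SE 0.05, adjusted p = 0.0034) and 1.27-fold lower in BT474-Var4 cells (log2 -0.35, SE 0.05, adjusted p = 0.0149), with the latter call ended by leaving out any Control or BT474-Var4 array (adjusted p at most 0.0843). E2F1, an activator of S-phase genes, fell by 0.32 and 0.51. UHRF1, which carries DNA methylation to the new strand, fell by 0.36 and 0.38. Leaving out either Control array ended the calls of E2F1 and UHRF1 in both populations.

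**Figure D3:**
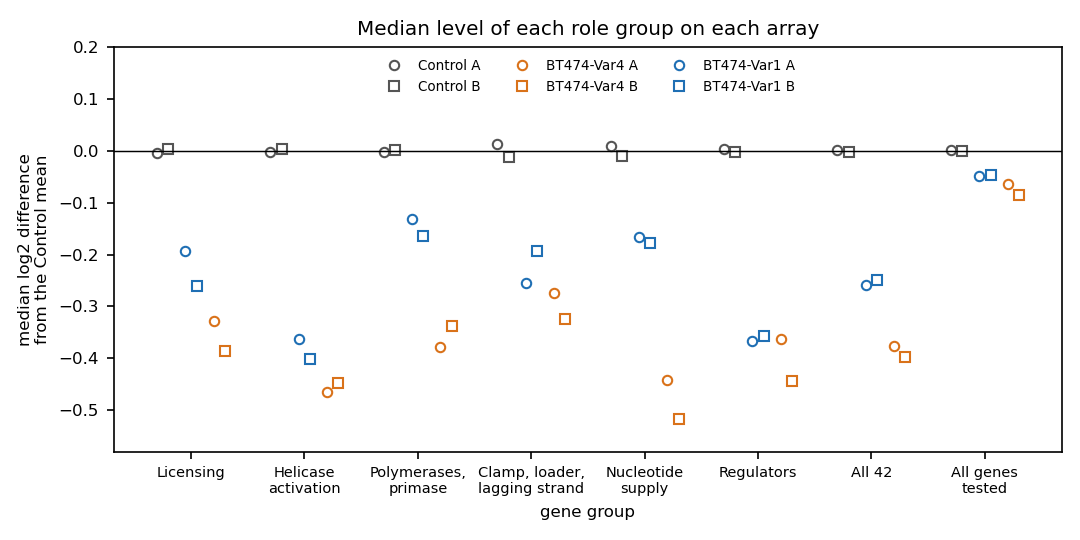
Median difference from the Control mean (y axis, log2) over the genes of each role group, all 42 genes and all gene names tested, on each of the 6 arrays (circles A, squares B; Control gray, BT474-Var1 blue, BT474-Var4 orange). On the arrays of cells with a variant the median of the 42 genes lies between -0.40 and -0.25, and that of all genes tested between -0.09 and -0.05.

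The populations were also compared directly, a difference that holds no Control level. In BT474-Var4 minus BT474-Var1, 13 members were lower and 3 higher, where 21.0% of all gene names were lower and 20.9% higher, and the median was -0.11 beside -0.03 over all gene names. The share of members called lower (31.0%) was above that of all gene names, and the share called higher (7.14%) was below it. With lower and higher calls added up, the share of members called was not above that of all gene names. The difference between these shares was not tested. LIG1 alone passed 2-fold (2.02-fold lower in BT474-Var4, log2 -1.01, SE 0.08, adjusted p = 0.00225), as did 6.95% of all gene names. POLD1 followed (log2 -0.75, SE 0.05, adjusted p = 0.00183), then RRM2 (log2 -0.47, SE 0.07, adjusted p = 0.0101) and POLA1 (log2 -0.46, SE 0.05, adjusted p = 0.00538). MCM5, GMNN, TYMS, CDT1, POLE, RFC5, MCM7, FEN1 and GINS1 were also lower in BT474-Var4 cells (-0.46 to -0.19). The other probe of POLE had a difference of 0.15 and was not called. E2F8 (0.42), RPA2 (0.28) and ORC6 (0.18) were higher in BT474-Var4 cells, where their levels lay closer to Control. Normexp background correction moved the median to -0.054, beside -0.046 over all gene names. It called 15 members lower and 10 higher, where 31.8% and 26.9% of all gene names were. Quantile normalization moved the median to -0.19, beside 0.01 over all gene names, and those called lower to 20, where 18.7% of all gene names were. With no filter on dim probes 3 were called lower, as were 5.04% of all gene names. Without 1 array fewer members, and a smaller share of all gene names, were called in each direction. LIG1, POLD1, RRM2, POLA1, MCM5, GMNN and E2F8 remained called whichever array was left out. For the 6 helicase activation genes the differences ran from -0.19 to 0.10 and GINS1 alone was called, and for GINS2 the 95% interval was -0.10 to 0.24.

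**Figure D4:**
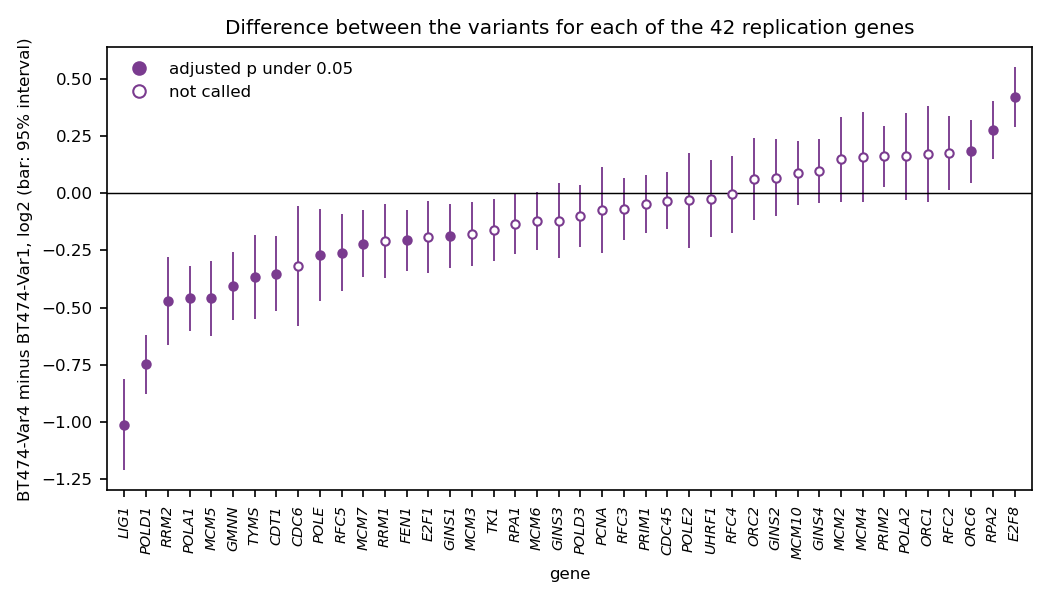
Difference in log2 level between BT474-Var4 and BT474-Var1 cells (y axis, bars are 95% intervals from limma) for each of the 42 genes (x axis), ordered by size; filled points have an adjusted p under 0.05. LIG1 (-1.01) and POLD1 (-0.75) lie lowest and E2F8 (0.42) highest, with 13 filled points below 0 and 3 above.

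Genes outside the 42 that act in replication were counted from a list of 50, all tested. In BT474-Var1 cells 28 fell and 1 rose (median -0.29), where 20.7% and 14.2% of all gene names did, and in BT474-Var4 cells 26 fell and 2 rose (median -0.26), against 14.6% and 10.2%. The largest changes in BT474-Var1 cells were in TOPBP1 (-0.83, adjusted p = 0.00374), which helps to load CDC45, in DSCC1 (-0.76), of an alternative clamp loader, in the phosphatase CDC25A (-0.71) and in the helicase MCM8 (-0.69). In BT474-Var4 cells they were in RECQL4 (-0.83, adjusted p = 0.00333), a helicase of origin firing, in CHTF18 (-0.75), of the same alternative loader, in the histone chaperone ASF1B (-0.72) and in TOP2A (-0.59), which untangles copied DNA. Between the populations 3 of the 50 were lower and 9 higher in BT474-Var4 cells (median 0.05), shares below those of all gene names (21.0% and 20.9%), with RECQL4 (-0.90) and CHTF18 (-0.64) lower and MCM8 (0.67) and CDC25A (0.51) higher.

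Mitotic genes were lower too. Of 24 genes of mitosis, all tested, 18 fell and 0 rose in BT474-Var1 cells (median -0.43; 20.7% of all gene names fell) and 19 fell and 0 rose in BT474-Var4 cells (median -0.39; 14.6% of all gene names fell); at an unadjusted p under 0.05 in limma 0 were higher in either. KIF20A (-0.80), NUF2 (-0.76), CENPA (-0.71) and CCNB1 (-0.66) changed most in BT474-Var1 cells, and CENPE (-0.80), AURKB (-0.74), NUF2 (-0.57) and CENPF (-0.53) in BT474-Var4 cells. Between the populations 3 were lower and 2 higher in BT474-Var4 cells, below the 21.0% and 20.9% of all gene names. No test between the mitotic list and the 42 genes was made. The part of the number of dividing cells in these values was not tested.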

How the data were processed

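Per the labels and the methods, 100 ng of total RNA was amplified with Cy3 label for one-color Agilent arrays. Spots were quantified by the authors with Agilent Feature Extraction 11.5.1.1, and the deposited intensity of each spot is background-subtracted and detrended, on a linear scale. The authors also deposited a table of log2 values, shifted to the 75th percentile of each array in GeneSpring. It matched the values used here (median absolute difference at most 0.00716 per array). The array design number in the file headers is not the one in the methods; headers place the probes on hg19.

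Here the log2 processed intensity, outlier spots removed and spots of a probe averaged, minus the array's 75th percentile was used. In at least 1 group, 31858 probes had the well-above-background mark on both arrays, and these were tested. limma 3.58.1, in R 4.3.3, fitted 1 mean for each group to the 6 arrays, with 3 residual degrees of freedom, and Benjamini-Hochberg adjustment ran over all tested probes. The pipeline was tested on simulated data. The number of arrays limits the precision, and detection above background limits what can be measured. The members and lists were chosen with earlier results of these data known. Values on every array are given for the 4 largest called changes of each comparison and the largest mean change of each role group; of the other lists, up to 4 genes a comparison are named. Alternatives were normexp background correction (offset 50), quantile normalization, probes of any brightness or only those above background on all 6 arrays, the authors' normalized table, a block for the replicate letter, a variance trend, only the groups compared, each array left out, the methods' analysis of variance, the mean of a gene's probes, and, added after seeing the data, centring on the median of tested probes.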

Additional observations from a re-analysis of the deposited data

Results flagged for a closer look

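For 16 of the 42 genes the change against Control differed between the populations by a direct test of BT474-Var4 minus BT474-Var1 in limma (adjusted p under 0.05). Of the members, 13 (31.0%) were lower in BT474-Var4 cells and 3 (7.14%) higher, where 21.0% and 20.9% of all gene names were. The share called lower is above the background and the share called higher below it. With lower and higher calls added up, the share of members that differed is not above the background. The calls of LIG1 (-1.01, adjusted p = 0.00225), POLD1 (-0.75, adjusted p = 0.00183) and POLA1 (-0.46, adjusted p = 0.00538) held in all alternatives. RRM2 (-0.47), MCM5 (-0.46) and GMNN (-0.41) kept the call without any 1 array. TYMS (-0.36) and CDT1 (-0.35) lost it without BT474-Var4 B or BT474-Var1 A. POLE (-0.27), RFC5 (-0.26), MCM7 (-0.22), FEN1 (-0.20) and GINS1 (-0.19) lost it whichever array was left out. The other probe of POLE was not called (0.15, adjusted p = 0.194 in limma). In the other direction, E2F8 (0.42, adjusted p = 0.00546) kept the call without any 1 array. RPA2 (0.28) lost it when BT474-Var1 A, BT474-Var1 B or BT474-Var4 B was left out, and ORC6 (0.18) lost it whichever array was left out.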

How the results depend on the processing

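Of the 73 calls of members over the 3 comparisons, 0 reversed under any alternative. Calls that held under all alternatives were those of E2F8, GINS2, GINS4, ORC6 and RFC3 in BT474-Var1, of GINS2 and POLD1 in BT474-Var4 cells, and of LIG1, POLA1 and POLD1 between the populations. With no filter on dim probes, where many more probes entered the fit, members called lower numbered 5 in BT474-Var1, 2 in BT474-Var4 cells and 3 between the populations, with 0 higher. Without 1 array they numbered 8 to 19, 7 to 27 and 6 to 8, with 1 to 2 higher between the populations, and medians ran from -0.27 to -0.24, from -0.41 to -0.38 and from -0.11 to -0.10. Normexp gave medians of -0.25, -0.35 and -0.054 and 10 members higher between the populations (BT474-Var4 minus BT474-Var1). The median of -0.054 stood beside -0.046 over all gene names. Quantile normalization gave medians of -0.12, -0.36 and -0.19, 2 members higher in BT474-Var1 cells than in Control and 20 lower between the populations. A variance trend with robust estimation gave 1 member higher in BT474-Var1 cells and 8 higher between the populations. A fit of only the 2 populations gave 8 lower between them. The mean of a gene's probes gave a median of -0.26 in BT474-Var1 cells, and centring on the median of tested probes gave -0.27 there and -0.082 between the populations. At the methods' unadjusted p under 0.05 with 2-fold, 0 members were lower in either population and 1 (LIG1) between them, with 0 higher. The cause of these shifts was not tested. The replicate letters did not pair the arrays (correlations of deviations -0.02 to 0.05), and with the letter as a replicate block 18, 26 and 10 members were lower.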
